A study of Mus musculus with 3 samples.

Results

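Blood-rich spots were the spots of a heart section in which red-cell messenger RNA took the largest share of the transcripts. In each section separately, the unique molecular identifiers (UMIs, one per captured transcript) of the 4 adult globin genes Hba-a1, Hba-a2, Hbb-bs and Hbb-bt were summed per 10000 UMIs of the spot, and a spot was blood-rich when this share reached the 95th percentile of its section. The rule selected 315 of 6276 spots, 112 of 2234 in sham, 105 of 2082 in I/R and 98 of 1960 in SBP. The remaining spots of the same section, numbering 2122, 1977 and 1862, were the comparison. The spatial libraries (Visium) held 1 cryosection of 10 µm from the heart of 1 C57BL/6 mouse per condition. The sham mouse received vehicle by gavage for 7 days and an operation with the needle alone. The I/R mouse received the same vehicle, and its left anterior descending artery was tied for 30 min and reopened for 24 h. The SBP mouse had the same ischemia and reperfusion after 7 days of gavage with MUSKARDIA, a multi-herb pill (Shexiang Baoxin Pill). With 1 section per condition there was no replicate of any condition, spots of a section are not replicates, and all intervals are at the 95% level and cover counting error only.

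A mature mouse red cell has no nucleus but keeps remnants of globin messenger RNA and of a few other transcripts made late in its development, so globin UMIs mark the places where blood lies in a section. Blood in a frozen piece of heart can lie within capillaries, larger vessels or the chambers, or outside vessels after haemorrhage, which is known in reperfused infarcts. The paper states that the tissue was washed in cold PBS and cut before it was frozen. Neutrophils, monocytes and platelets travel in the same stream, but in an infarct neutrophils and monocytes leave it and gather in the injured muscle. Smooth muscle cells wrap arteries and larger veins, whereas capillaries are an endothelial tube with scattered pericytes. A spot is a small disc of tissue that holds several cells of different types, and spot positions were not used here.

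The promoters of the genes that mark these spots are shown because the globin genes and Alas2, the erythroid enzyme that opens haem synthesis, are textbook targets of the same set of erythroid factors. The 120 bases before the RefSeq start of transcription are given 5′ to 3′ (GRCm38.p6), with matches on either strand to GATAA (bound by GATA1), to the CCAAT box, to CACCC (bound by KLF1) and to the TATAA box in capitals. Hba-a1 lies at chr11:32283552-32283671 on the plus strand, Hbb-bs at chr7:103827929-103828048 on the minus strand and Alas2 at chrX:150547297-150547416 on the plus strand.
Hba-a1: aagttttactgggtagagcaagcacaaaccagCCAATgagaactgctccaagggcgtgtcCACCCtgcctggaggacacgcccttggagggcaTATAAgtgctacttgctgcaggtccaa
Hbb-bs: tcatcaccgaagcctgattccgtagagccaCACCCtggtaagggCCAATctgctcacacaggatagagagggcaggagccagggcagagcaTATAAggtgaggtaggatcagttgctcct
Alas2: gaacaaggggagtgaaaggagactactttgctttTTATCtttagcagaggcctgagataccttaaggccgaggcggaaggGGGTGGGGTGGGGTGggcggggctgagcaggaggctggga
The run of capitals in Alas2 holds 3 neighbouring matches to CACCC read on the other strand. CACCC occurs in 51.3% of 27025 RefSeq promoters over the 250 bases before the start, CCAAT in 34.5%, TATAA in 23.5% and GATAA in 23.0%, so that a match describes the sequence and is no evidence of binding. Of 7 promoters searched over these 250 bases, those of the 4 globin genes held all 4 motifs. That of Alas2 held all but CCAAT, Bpgm held CCAAT alone and Mkrn1 held none of the 4 motifs. In the 120 bases before the start, the Hba-a1 and Hba-a2 promoters are near copies, so their matches are not independent. The GENCODE M21 genes begin at other bases than the RefSeq starts, at 32283511 for Hba-a1, 103828096 for Hbb-bs and 150547375 for Alas2, so that the windows of Hba-a1 and Hbb-bs lie within the GENCODE genes and that of Alas2 overlaps its gene.

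The spots were chosen by their measured globin share, so the globin values are a description. The threshold was 128, 184 and 171 globin UMIs per 10000 in sham, I/R and SBP. The lowest blood-rich spot stood at 128.4, 183.8 and 172.2, and the highest of the other spots at 127.9, 182.5 and 171.4, so that no gap separated members from neighbours. The median blood-rich spot held 193, 271 and 281 globin UMIs per 10000 in the 3 sections, and the highest held 848, 1130 and 1068. Among the other spots the median was 7.69, 10.0 and 8.03, and 30, 12 and 35 spots held no globin UMI.

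**Figure D1:**
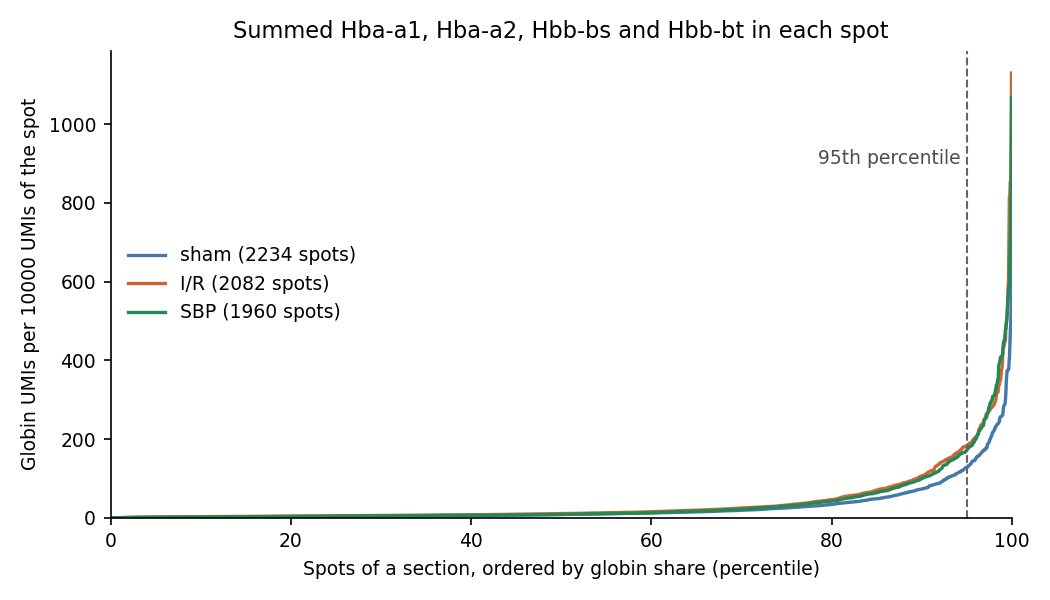
Globin UMIs per 10000 UMIs of each spot (y axis, linear) against the rank of the spot within its section as a percentile (x axis), with 1 line per section and the 95th percentile dashed. The share rises without a step through the threshold and reaches 848, 1130 and 1068 in sham, I/R and SBP.

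Blood-rich spots held 41.7% of the globin UMIs of the sham section, 43.7% in I/R and 43.6% in SBP, with 5.30%, 5.50% and 5.27% of all UMIs. Over the whole section, globin took 0.288%, 0.409% and 0.385% of the UMIs in sham, I/R and SBP. On the log2 scale this was 0.51 (0.50 to 0.52) higher in I/R than in sham, 0.42 (0.40 to 0.43) higher in SBP than in sham and -0.09 (-0.10 to -0.08) for SBP over I/R. With the sham threshold applied to every section, 8.50% of I/R spots (7.34 to 9.78, exact binomial) and 7.70% of SBP spots (6.56 to 8.97) were blood-rich, against 5.01% in sham. More blood in the tissue and more globin RNA per red cell cannot be told apart in such values, nor can condition, mouse and section.

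Within the globin pool, Hbb-bs, a beta chain, held the largest part of the UMIs in blood-rich spots, with 40.1%, 42.9% and 41.0% in sham, I/R and SBP. The second beta gene, Hbb-bt, held 5.58%, 6.47% and 5.81%, and its level was 15.1, 16.9 and 17.7 times that of the other spots. Hba-a1 held 27.0%, 26.8% and 27.1% in blood-rich spots, but 23.4%, 24.7% and 25.04% in the other spots. Hba-a2 held 27.3%, 23.9% and 26.1% in blood-rich spots and 31.7%, 26.4% and 27.7% in the other spots. The split between the alpha genes is uncertain, because the aligned parts of the Hba-a1 and Hba-a2 transcripts differ at 1 base (99.8% identity) and the counting could divide their reads. Hbb-bs and Hbb-bt are 93.8% identical.

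Blood-rich spots did not differ much from the others in depth. The median was 10979 UMIs against 10628 in sham, 15742 against 14646 in I/R and 10972.5 against 10637.5 in SBP, and the 13 mitochondrial genes took 47.6% against 48.7%, 43.6% against 44.4% and 44.9% against 46.4%. The heart label held in both kinds of spots, where Myh6, the main ventricular myosin of the mouse, stood at 6850 against 6921 CPM in sham, 5221 against 5045 in I/R and 6224 against 5669 in SBP (CPM, the pooled share of all UMIs of those spots scaled to 1000000). Between 1205 and 1565 spot barcodes were shared by any 2 sections, since slides carry the same barcode set, and 3 to 5 of them were blood-rich in both sections of a pair, or 4.69% to 6.25% of the blood-rich spots with a shared barcode.

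Across all genes with at least 200 UMIs in a section, the globin genes left out, few were higher in blood-rich spots. A gene was counted when its pooled level differed by at least 1.5-fold (log2 ratio beyond 0.585), and no test was made. In sham 121 of 6656 genes (1.82%) were higher and 557 (8.37%) lower. In I/R 85 of 8068 (1.05%) were higher and 718 (8.9%) lower. In SBP 124 of 6360 (1.95%) were higher and 690 (10.8%) lower. The median gene stood at a log2 ratio of -0.06, -0.11 and -0.09. Most of the counted genes had few UMIs in blood-rich spots, where counting error alone can take a gene past 1.5-fold in either direction. The minimum of 200 UMIs was taken over blood-rich and other spots together. Some higher genes met it only through their blood-rich spots, such as Acap3 in sham with 18 and 187 UMIs. With at least 500 UMIs per gene, 3462, 4612 and 3207 genes were compared. Of these, 10, 7 and 11 were higher and 125, 170 and 152 lower.

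Of the higher genes of sham, I/R and SBP, 94, 35 and 117 were compared in all 3 sections, and 5 genes were higher in each, or 5.32%, 14.3% and 4.27% of them. They were Bpgm, Mkrn1, Slc25a37, Myh11 and Tagln. Without the 1% of spots richest in the gene, Myh11 turned to -0.07 in sham and -1.67 in SBP, and Tagln to -0.64 in SBP. Bpgm makes the metabolite that lowers the oxygen affinity of haemoglobin, Slc25a37 (mitoferrin) carries iron into mitochondria for haem, and Mkrn1 encodes a ubiquitin ligase abundant in late erythroid cells, whereas Myh11 and Tagln encode contractile proteins of smooth muscle. The lower genes shared by all 3 sections numbered 23, of 466, 335 and 633 lower genes that were compared in all of them (4.94%, 6.87% and 3.63%). They included the neutrophil genes S100a8, S100a9 and Lcn2, the chemokine Cxcl5, the macrophage genes Trem2, Mpeg1, Ms4a6c and Laptm5, and Hmox1, the enzyme that breaks down haem. Only S100a8, S100a9, Lcn2 and Trem2 were members of a leukocyte list. Most of the set belonged to none, among them Cxcl5, Mpeg1, Ms4a6c and Laptm5 as well as Bak1, Golt1b, Mcm6 and Ss18. Several members rested on few UMIs in blood-rich spots, such as Trem2 with 8, 27 and 5 and Ms4a6c with 6, 23 and 7.

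**Figure D2:**
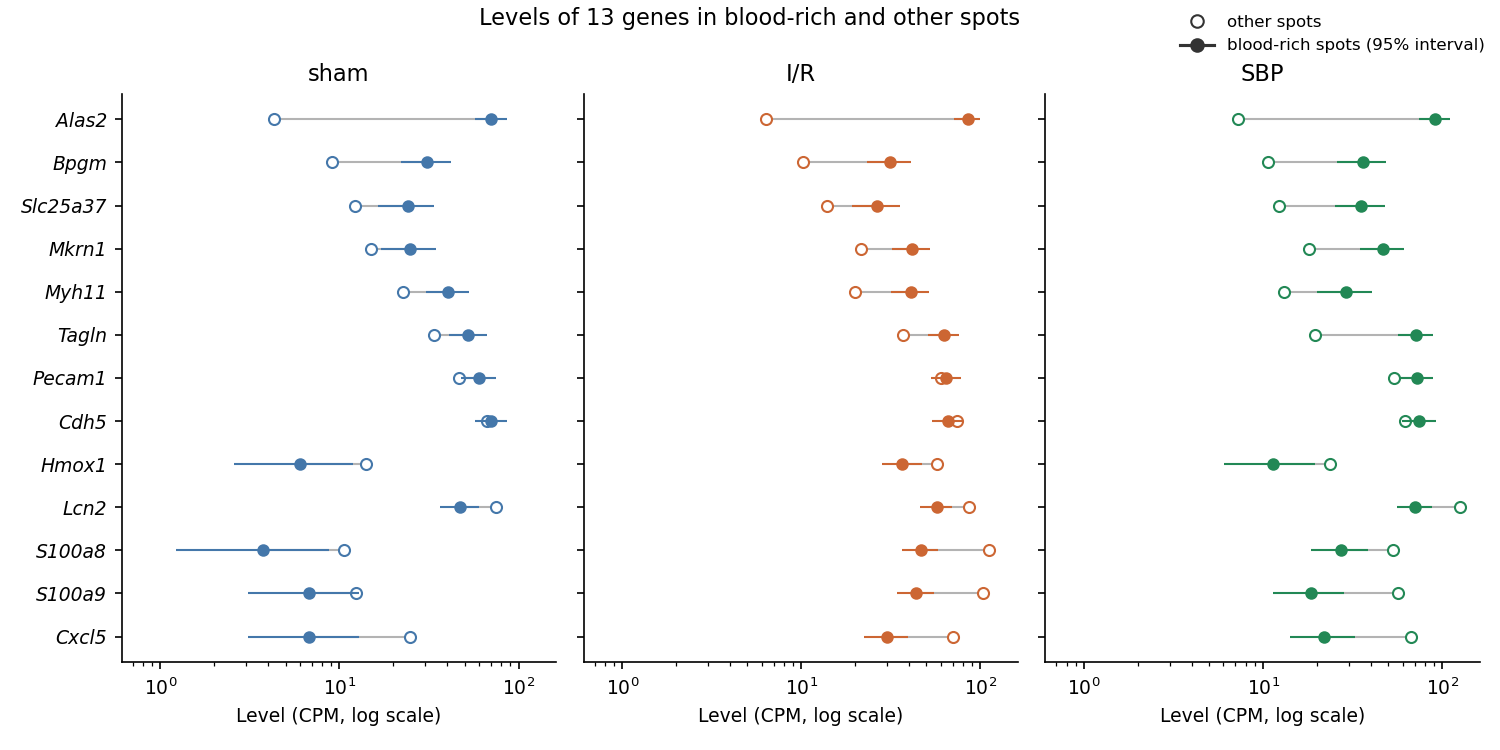
Pooled level of 13 genes in blood-rich (filled, with the 95% Poisson interval) and other spots (open) of sham, I/R and SBP, on a log axis in CPM. Alas2, Bpgm, Slc25a37, Mkrn1, Myh11 and Tagln lie to the right in blood-rich spots, Pecam1 and Cdh5 lie close together, and Hmox1, Lcn2, S100a8, S100a9 and Cxcl5 lie to the left.

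The other erythroid genes, which the rule did not use, followed globin most closely. Like the other lists, theirs was chosen with earlier results of these data known. The list also holds genes of earlier precursors, such as Klf1 and Gata1, and Fech, which most cells use. Of the 22 list members in the files, 4, 6 and 5 reached 200 UMIs in sham, I/R and SBP, and 3, 4 and 4 of them were higher, beside 1.82%, 1.05% and 1.95% of all genes, and 0 lower. Alas2, among the higher members in I/R and SBP, reached 200 UMIs only with those of its blood-rich spots. Its place in these counts is therefore a description. The summed level was 326 CPM in blood-rich against 156 in other spots of sham, 375 against 160 in I/R and 407 against 166 in SBP. As log2 ratios these were 1.06 (0.91 to 1.20), 1.23 (1.11 to 1.35) and 1.29 (1.15 to 1.43), and the median over the compared members was 0.73, 1.0 and 1.37. The signal was spread over many spots. In single spots the median was 3.08 against 1.28 UMIs per 10000 in sham, 3.18 against 1.42 in I/R and 3.69 against 1.40 in SBP, although the ranges overlapped, and the top 3 spots held 8.84% to 9.91% of the list's UMIs.

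Alas2 had the highest ratio of the compared members in I/R and SBP. It stood at 84.8 CPM in blood-rich and 6.4 CPM in other spots of I/R (141 and 182 UMIs) and at 91.2 and 7.3 CPM in SBP (104 and 149 UMIs), with log2 ratios of 3.73 (3.41 to 4.06) and 3.65 (3.27 to 4.02). The sham section had 94 and 102 Alas2 UMIs, just under the minimum for comparison, at 70.6 and 4.3 CPM and a log2 ratio of 4.04 (3.62 to 4.46). The log2 ratios of the globin genes themselves ran from 3.46 to 4.15. Counted per 10000 globin UMIs, Alas2 stood at 31.2 in blood-rich and 24.2 in other spots of sham, 26.0 and 26.1 in I/R and 28.7 and 31.7 in SBP, a description, since globin chose the spots. The Alas2 UMIs lay in 58, 69 and 56 of the blood-rich spots.

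Bpgm stood at 30.8 against 9.0 CPM in sham, 31.3 against 10.2 in I/R and 36.0 against 10.6 in SBP, with log2 ratios of 1.77 (1.25 to 2.25), 1.61 (1.16 to 2.04) and 1.76 (1.24 to 2.25). Slc25a37 stood at 24.0 against 12.2, 26.5 against 13.9 and 35.1 against 12.3 CPM, and its log2 ratio was 0.98 (0.40 to 1.51), 0.93 (0.45 to 1.38) and 1.51 (0.99 to 2.0). Both genes were thus higher in every section, by an amount that the counting error did not separate between sections. Mkrn1 was at 24.8 against 15.1, 41.5 against 21.6 and 46.5 against 18.0 CPM, with log2 ratios of 0.72, 0.94 and 1.37. Bnip3l, which clears mitochondria from maturing red cells, had log2 ratios of 0.73 (0.35 to 1.09), 0.58 (0.25 to 0.90) and 0.69 (0.31 to 1.05), the I/R value just short of 1.5-fold. Epb41, a protein of the red-cell membrane skeleton, had 0.58, 0.67 and 0.97.

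Not every gene of haem synthesis stood higher. Fech, which inserts iron to finish haem and is used by most cells, stood at 88.6 against 79.0 CPM in sham, 66.7 against 60.9 in I/R and 96.5 against 73.8 in SBP, with log2 ratios of 0.17, 0.13 and 0.39. Members under 200 UMIs were not compared, but Tent5c had 21, 37 and 29 UMIs in blood-rich and 48, 94 and 38 in all other spots together. Genes of earlier precursors were close to absent. Klf1 and Gata1, the factors of erythroid development, had at most 1 UMI in a whole section, and Epb42, Rhag, Kel and Ermap had at most 2 UMIs.

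Smooth muscle genes were the only list of vessel cells whose counting interval lay above 0 in each of the 3 sections, but the difference lay in a handful of spots. Of 9, 10 and 9 compared members, 3, 2 and 6 were higher, beside 1.82%, 1.05% and 1.95% of all genes, and 0 lower. The summed level was 864 CPM against 660 in sham, 670 against 536 in I/R and 717 against 414 in SBP, with log2 ratios of 0.39 (0.30 to 0.48), 0.32 (0.23 to 0.41) and 0.79 (0.69 to 0.90). The median spot did not follow. It held 5.30 against 4.83 smooth muscle UMIs per 10000 in sham, 3.23 against 3.47 in I/R and 2.84 against 3.22 in SBP, while the top 3 of the blood-rich spots held 32.1%, 36.6% and 49.1% of the list's UMIs. Without the 1% of spots with the highest share of these genes, the log2 ratio fell to 0.08, 0.03 and 0.05.

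Tagln stood at 52.5 against 33.7 CPM in sham, 62.5 against 37.1 in I/R and 71.0 against 19.5 in SBP, with log2 ratios of 0.64 (0.27 to 1.0), 0.75 (0.45 to 1.04) and 1.87 (1.5 to 2.21). In SBP its 81 UMIs came from 11 of the 98 blood-rich spots, and 3 spots gave 81.5% of them. Myh11, the smooth muscle myosin, was at 40.5 against 22.5, 40.9 against 20.1 and 28.9 against 13 CPM, with log2 ratios of 0.85 (0.42 to 1.25), 1.03 (0.64 to 1.39) and 1.15 (0.58 to 1.68). Without the 1% of spots richest in each gene, the log2 ratio was 0.37, 0.56 and -0.64 for Tagln and -0.07, 0.71 and -1.67 for Myh11, so that the sign in SBP, and for Myh11 in sham, rested on those spots. Acta2, smooth muscle actin, showed the same concentration in SBP, with 201 against 76.4 CPM, a log2 ratio of 1.39 (1.19 to 1.59) and 74.2% of its UMIs in 3 spots. Its log2 ratio was 0.43 in sham and 0.38 in I/R.

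**Figure D3:**
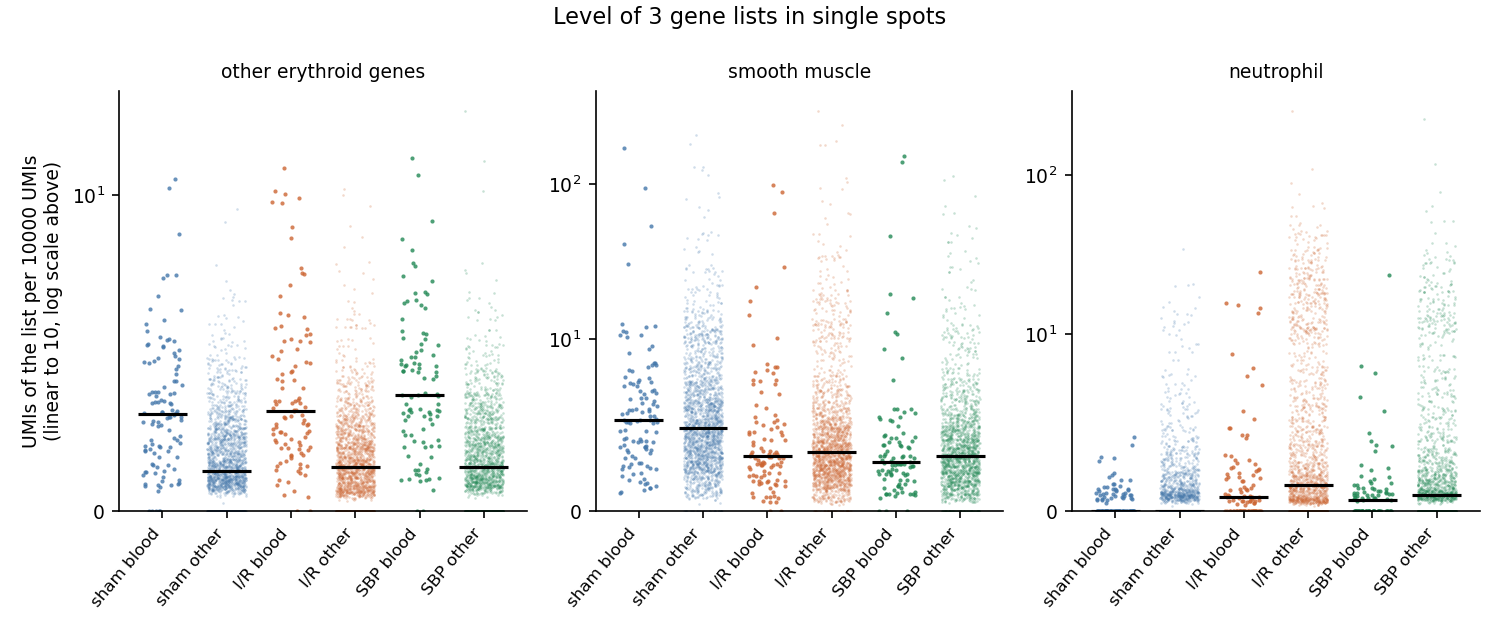
UMIs per 10000 of the other erythroid, smooth muscle and neutrophil lists in every single spot, blood-rich beside other spots of each section, with the median as a black bar (axis linear to 10 and logarithmic above). The erythroid median is raised throughout the blood-rich spots (3.08 against 1.28 in sham), the smooth muscle medians are alike with a few very high spots, and the neutrophil median is lower in blood-rich spots of I/R (0.827 against 1.51) and SBP (0.616 against 0.942).

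Of the vessel wall matrix, 1 of 12 compared genes in sham, 1 of 12 in I/R and 2 of 10 in SBP were higher, beside 1.82%, 1.05% and 1.95% of all genes, and 0 lower. Eln, the elastin of arteries, stood at 34.5 against 31.1 CPM in sham, 46.3 against 29.2 in I/R and 59.6 against 16.1 in SBP, with log2 ratios of 0.15 (-0.31 to 0.58), 0.67 (0.31 to 1.0) and 1.89 (1.49 to 2.27). Its SBP value was 0.97 without the 1% of spots richest in Eln, 3 spots having given 63.2% of its UMIs. Fbln5, a fibulin of elastic fibres, had log2 ratios of 0.79 (0.27 to 1.28), 0.23 (-0.40 to 0.80) and 1.13 (0.55 to 1.67). The whole list summed to log2 ratios of 0.10, 0.01 and 0.39.

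Capillary endothelium was nearly the same in blood-rich and other spots. The summed level was 2505 against 2233 CPM in sham, 2122 against 2087 in I/R and 2422 against 2277 in SBP, with log2 ratios of 0.17 (0.11 to 0.22), 0.02 (-0.03 to 0.07) and 0.09 (0.03 to 0.14). None of the 17, 17 and 16 compared members was higher by 1.5-fold, beside 1.82%, 1.05% and 1.95% of all genes. In sham 1 was lower, Car4, beside 8.37% of all genes. Pecam1, a junction protein of all endothelium, stood at 60.0 against 46.5, 64.3 against 60.2 and 71.9 against 54.0 CPM (log2 0.37, 0.10 and 0.41), and Cdh5 at 70.6 against 66.5, 65.5 against 73.6 and 74.5 against 62.0 (log2 0.09, -0.17 and 0.27). Fabp4, a fatty acid carrier of heart capillaries, had log2 ratios of 0.36, 0.15 and 0.06, and Cd36 -0.04, 0.04 and 0.00. Pericyte genes stood at -0.12, 0.03 and 0.11 as a sum. Of 10 members, 1 was lower in sham (Steap4), beside 8.37% of all genes, and 1 higher in I/R (Colec11), beside 1.05%.

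Of the compared genes of larger-vessel endothelium, some were higher in sham and SBP but not in I/R. Arterial genes summed to log2 ratios of 0.23 (-0.02 to 0.47), 0.00 (-0.23 to 0.22) and 0.38 (0.13 to 0.62), and 2 of 4, 0 of 8 and 2 of 4 compared members were higher, beside 1.82%, 1.05% and 1.95% of all genes, and 1 was lower in I/R, beside 8.9%. Venous genes summed to 0.01, -0.19 and -0.16, with 2 of 7 members higher in sham and 0 in the other sections. Vwf, the clotting factor stored in endothelium of larger vessels, stood at 60.8 against 35.8 CPM in sham, 31.9 against 28.8 in I/R and 67.5 against 51.9 in SBP, with log2 ratios of 0.76 (0.42 to 1.09), 0.14 (-0.28 to 0.55) and 0.38 (0.03 to 0.71). Plvap, a protein of fenestrated and venous endothelium, had 0.95, 0.16 and -0.04 in sham, I/R and SBP. It belongs to both the venous and the endocardial list. Fbln5, given above with the vessel wall matrix, was also among the arterial genes counted as higher in sham and SBP. Endocardial genes had few UMIs (57 to 70 in blood-rich spots) and summed to 0.56 (0.16 to 0.94), -0.05 (-0.46 to 0.34) and 0.03 (-0.34 to 0.38). Whether any of these differed between sections was not tested.

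**Figure D4:**
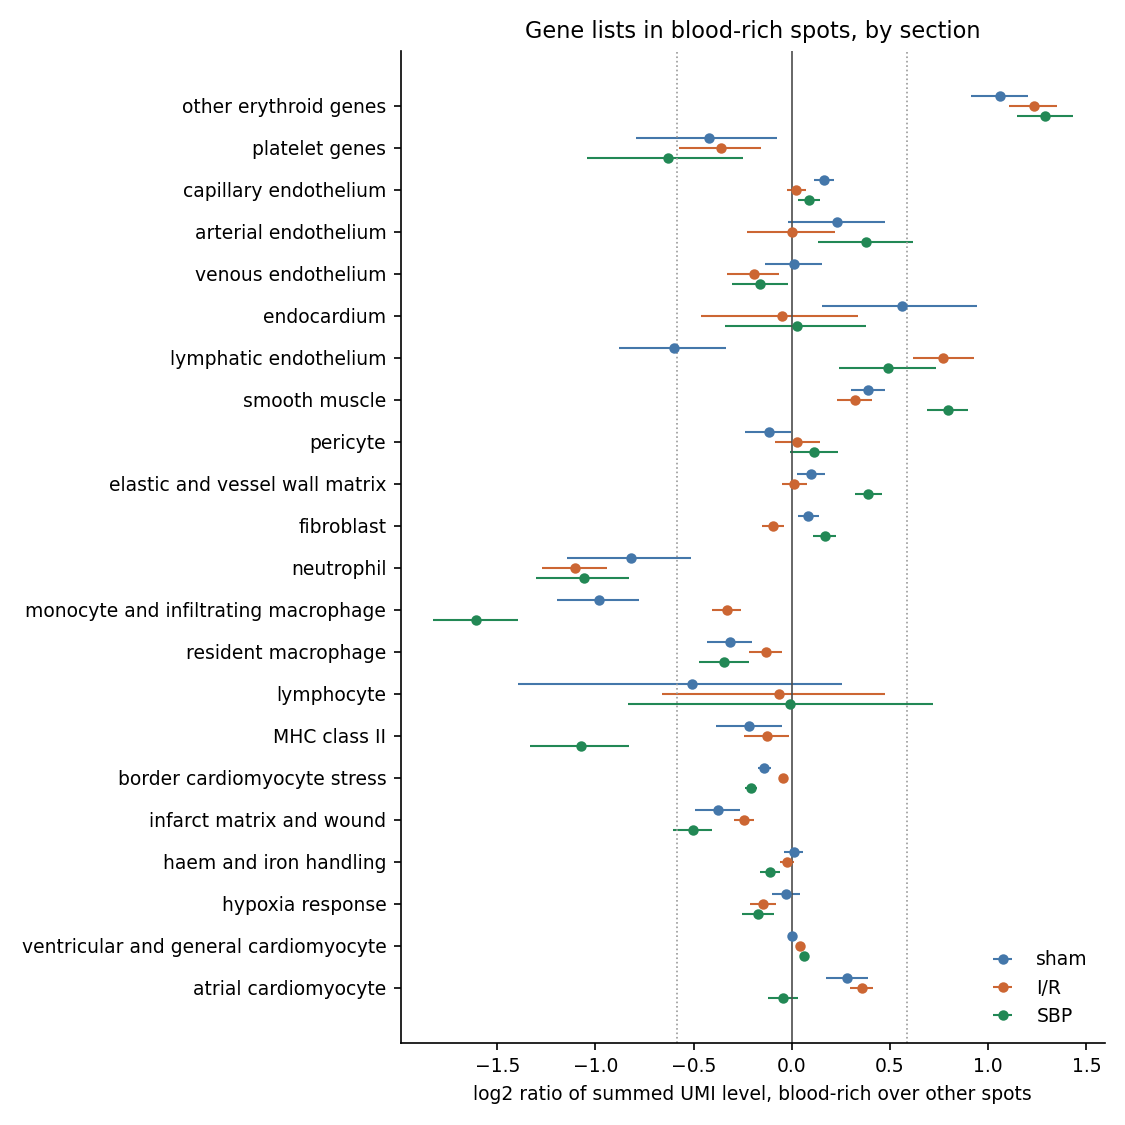
log2 ratio of the summed UMI level in blood-rich over other spots for 22 gene lists (x axis), with the 95% counting interval as a bar, by section, and 1.5-fold as dotted lines. Other erythroid genes lie above 1 in the 3 sections, capillary endothelium and cardiomyocyte genes lie near 0, and neutrophil genes lie between -0.82 and -1.10.

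Neutrophil genes were lower in blood-rich spots. They summed to 65.3 against 115 CPM in sham, 184 against 396 in I/R and 133 against 278 in SBP, with log2 ratios of -0.82 (-1.15 to -0.51), -1.10 (-1.27 to -0.94) and -1.06 (-1.3 to -0.83). All 3, 7 and 4 compared members were lower, beside 8.37%, 8.9% and 10.8% of all genes. In blood-rich spots, Lcn2 gave 63 of the list's 87 UMIs in sham, 95 of 306 in I/R and 80 of 152 in SBP. The blood-rich sums in sham and SBP thus rested mostly on this gene, which other cells also make. A neutrophil UMI was found in 41.1% of blood-rich against 41.7% of other spots in sham, 64.8% against 74.9% in I/R and 51.0% against 61.7% in SBP. The median spot held 0.827 against 1.51 in I/R and 0.616 against 0.942 in SBP, and 0 in both kinds of sham spots.

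S100a8, which with S100a9 forms the abundant calcium-binding protein of neutrophils, stood at 3.8 against 10.6 CPM in sham, 46.3 against 111 in I/R and 27.2 against 53.1 in SBP, with log2 ratios of -1.49 (-3.13 to -0.25), -1.27 (-1.61 to -0.94) and -0.97 (-1.53 to -0.45). S100a9 had -0.87 (-2.01 to 0.08), -1.23 (-1.59 to -0.90) and -1.61 (-2.31 to -0.99). The sham values rested on 5 and 9 UMIs in blood-rich spots, and for S100a9 in sham the sign turned (0.18) when spots were ranked by Hba-a1 and Hba-a2 alone. Lcn2, an iron-scavenger binding protein of neutrophils that other cells also make, had -0.67, -0.59 and -0.84. In I/R the neutrophil cytokine gene Il1b had 7 UMIs in blood-rich and 401 in other spots, a log2 ratio of -1.74 (-3.06 to -0.68), and Csf3r and Mmp9 had -1.29 and -1.25. Cxcl5, a chemokine that draws neutrophils, had -1.88 (-3.01 to -0.94), -1.23 (-1.66 to -0.82) and -1.61 (-2.24 to -1.04).

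Most compared genes of monocytes and infiltrating macrophages were lower in sham and SBP, and a minority in I/R. Of 7, 15 and 10 compared members, 6, 4 and 9 were lower, beside 8.37%, 8.9% and 10.8% of all genes, and 0 higher. The summed level was 146 against 288 CPM in sham, 936 against 1177 in I/R and 159 against 484 in SBP. The log2 ratios were -0.98 (-1.20 to -0.78), -0.33 (-0.41 to -0.26) and -1.61 (-1.83 to -1.40). Leaving out the 1% of spots richest in the list gave -0.38, -0.64 and -1.34, so that the order of sham and I/R rested on a few spots. Spp1 (osteopontin), made by infiltrating macrophages, stood at 48.8 against 110 CPM, 393 against 459 and 23.7 against 154, with log2 ratios of -1.17 (-1.55 to -0.82), -0.23 (-0.34 to -0.11) and -2.70 (-3.31 to -2.16). In I/R 3 blood-rich spots held 59.9% of the Spp1 UMIs. Ccr2, the receptor by which monocytes home, had 5, 63 and 2 UMIs in blood-rich spots and log2 ratios of -1.59 (-3.22 to -0.35), -0.22 (-0.61 to 0.14) and -3.19 (-6.25 to -1.33). The ligands Ccl2 and Ccl7 had -1.64 and -1.43 in sham, -0.43 and -0.53 in I/R and -2.12 and -2.23 in SBP.

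Resident macrophage genes differed less. They summed to -0.32, -0.13 and -0.34, with 4 of 12, 0 of 12 and 2 of 10 lower, beside 8.37%, 8.9% and 10.8% of all genes. The 1 member of 12 higher in I/R, beside 1.05% of all genes, was Lyve1, which lymphatic vessels also carry. Its log2 ratio turned to -0.0025 with the 90th and -0.26 with the 98th percentile as threshold. C1qa, a complement protein of tissue macrophages, stood at 101 against 118 CPM, 121 against 134 and 86.8 against 112. MHC class II genes, by which macrophages and other cells present antigen, were lower in all 4 compared members in SBP and in 0 of 4 in sham and 0 of 6 in I/R, and summed to -0.22, -0.13 and -1.08 (-1.33 to -0.83). H2-Ab1 had log2 ratios of -0.52, -0.17 and -1.26 and Cd74 had -0.05, -0.12 and -0.92. Genes that define lymphocytes gave only 14, 29 and 16 UMIs in all blood-rich spots, so their summed ratios had wide intervals. These log2 ratios were -0.51 (-1.40 to 0.26), -0.07 (-0.66 to 0.47) and -0.01 (-0.83 to 0.72). Platelet genes summed to -0.42, -0.36 and -0.63, but nearly all their UMIs were of Pf4, which macrophages also make (log2 -0.39, -0.34 and -0.64), while Ppbp had 0, 4 and 0 UMIs in blood-rich spots and Gp1bb, Gp9, Treml1 and Tubb1 had 0.

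Infarct genes had a lower summed level in each section, but few of them reached 1.5-fold in I/R. Of 14, 16 and 14 compared genes of infarct matrix and wound, 5, 2 and 6 were lower, beside 8.37%, 8.9% and 10.8% of all genes, and 0, 0 and 2 higher, beside 1.82%, 1.05% and 1.95%. The I/R count was close to the share over all genes. Spp1, Fn1 and Lgals3 belong both to the infarct list and to that of monocytes and infiltrating macrophages. The sums of these lists are therefore not independent. The median log2 ratio was -0.28, -0.20 and -0.47 beside -0.06, -0.11 and -0.09 over all genes. The summed level was 492 against 640 CPM in sham, 2039 against 2413 in I/R and 751 against 1066 in SBP, with log2 ratios of -0.38 (-0.49 to -0.26), -0.24 (-0.29 to -0.19) and -0.51 (-0.61 to -0.41). The median spot held 2.87 against 2.94 such UMIs per 10000 in sham, 5.30 against 9.04 in I/R and 3.72 against 4.82 in SBP. In sham the medians were thus nearly equal. Leaving out the 1% of spots richest in the list gave -0.10, -0.39 and -0.48, and with the 98th percentile as threshold the ratio was -0.14, -0.00026 and -0.010.

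Timp1, an inhibitor of matrix proteases, stood at 39.0 against 69.9 CPM in sham, 303 against 330 in I/R and 128 against 192 in SBP, with log2 ratios of -0.84, -0.12 and -0.58. Tgfbi, a matrix adhesion protein, stood at 23.3 against 28.8, 83.0 against 157 and 35.1 against 74.7 CPM, with -0.31, -0.92 (-1.18 to -0.68) and -1.09 (-1.58 to -0.64). Fn1, fibronectin, had -0.67, -0.34 and -1.06. The genes that were higher in SBP were Ccn2, a matricellular growth factor that mechanical stretch induces, at 69.3 against 41.2 CPM (log2 0.75, 0.40 to 1.08), and its relative Ccn1 at 22.8 against 13.3 CPM (0.78, 0.14 to 1.36). They stood at 0.13 and -0.18 in sham and at 0.13 and -0.18 in I/R.

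Cardiomyocyte genes showed where blood-rich spots matched the rest of the muscle. None of the 15 ventricular and general cardiomyocyte genes reached 1.5-fold either way in any section, and their sum differed by a log2 ratio of 0.00, 0.04 and 0.06. Stress genes of border-zone cardiomyocytes summed to -0.14, -0.04 and -0.21. Of 13 members, 0 were counted in sham and I/R and 2 were lower in SBP, Nppb and Uck2. Over all genes 8.37%, 8.9% and 10.8% were lower in sham, I/R and SBP. Ankrd1, a stretch-responsive nuclear protein, stood at 639 against 892 CPM in sham, 1465 against 1729 in I/R and 1028 against 1386 in SBP (log2 -0.48, -0.24 and -0.43). Nppb, the natriuretic peptide gene of strained muscle, stood at 126 against 123, 497 against 506 and 120 against 202 CPM (log2 0.03, -0.03 and -0.75).

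The list of haem and iron handling genes did not follow globin as a sum. Slc25a37, higher in every section as given above, is not on this list. The sum differed by 0.01, -0.02 and -0.11, and Fth1, the ferritin heavy chain, by 0.03, -0.02 and -0.07. Hmox1, induced in macrophages that take up red cells, was lower, at 6.0 against 14.1 CPM in sham, 36.7 against 57.3 in I/R and 11.4 against 23.5 in SBP, with log2 ratios of -1.23 (-2.45 to -0.23), -0.64 (-1.04 to -0.27) and -1.04 (-1.96 to -0.25). In I/R its sign turned to 0.08 with the 98th percentile as threshold. Hypoxia response genes summed to -0.03, -0.15 and -0.17, and Vegfa, the main angiogenic factor, had 0.04, 0.00 and -0.05.

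Across the full range of globin share, the lists behaved differently. Other erythroid genes stayed between 144 and 155 CPM up to the 75th percentile of every section and then climbed through each class to 401, 516 and 517 in sham, I/R and SBP above the 98th percentile. Capillary genes climbed through every class in sham, from 2186 (2150 to 2222) to 2568 CPM (2436 to 2706), and varied between 2024 and 2185 in I/R with no such order. In SBP they stood at 2256 up to the 25th percentile. They then rose from 2245 between the 25th and 50th to 2494 between the 95th and 98th, and stood at 2318 above. Smooth muscle genes stood at 743, 517 and 375 CPM between the 95th and 98th percentiles, and at 1037, 903 and 1208 above the 98th. Neutrophil genes declined through the lower classes in sham, from 157 CPM up to the 25th percentile to 55.9 between the 90th and 95th percentiles, whereas in I/R they stayed between 338 and 448 up to the 95th and stood at 149 between the 95th and 98th and 237 above. The infarct list in I/R stood at 1807 CPM between the 95th and 98th percentiles and at 2392 above, within the range of 2104 to 2662 of the classes below the 95th.

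**Figure D5:**
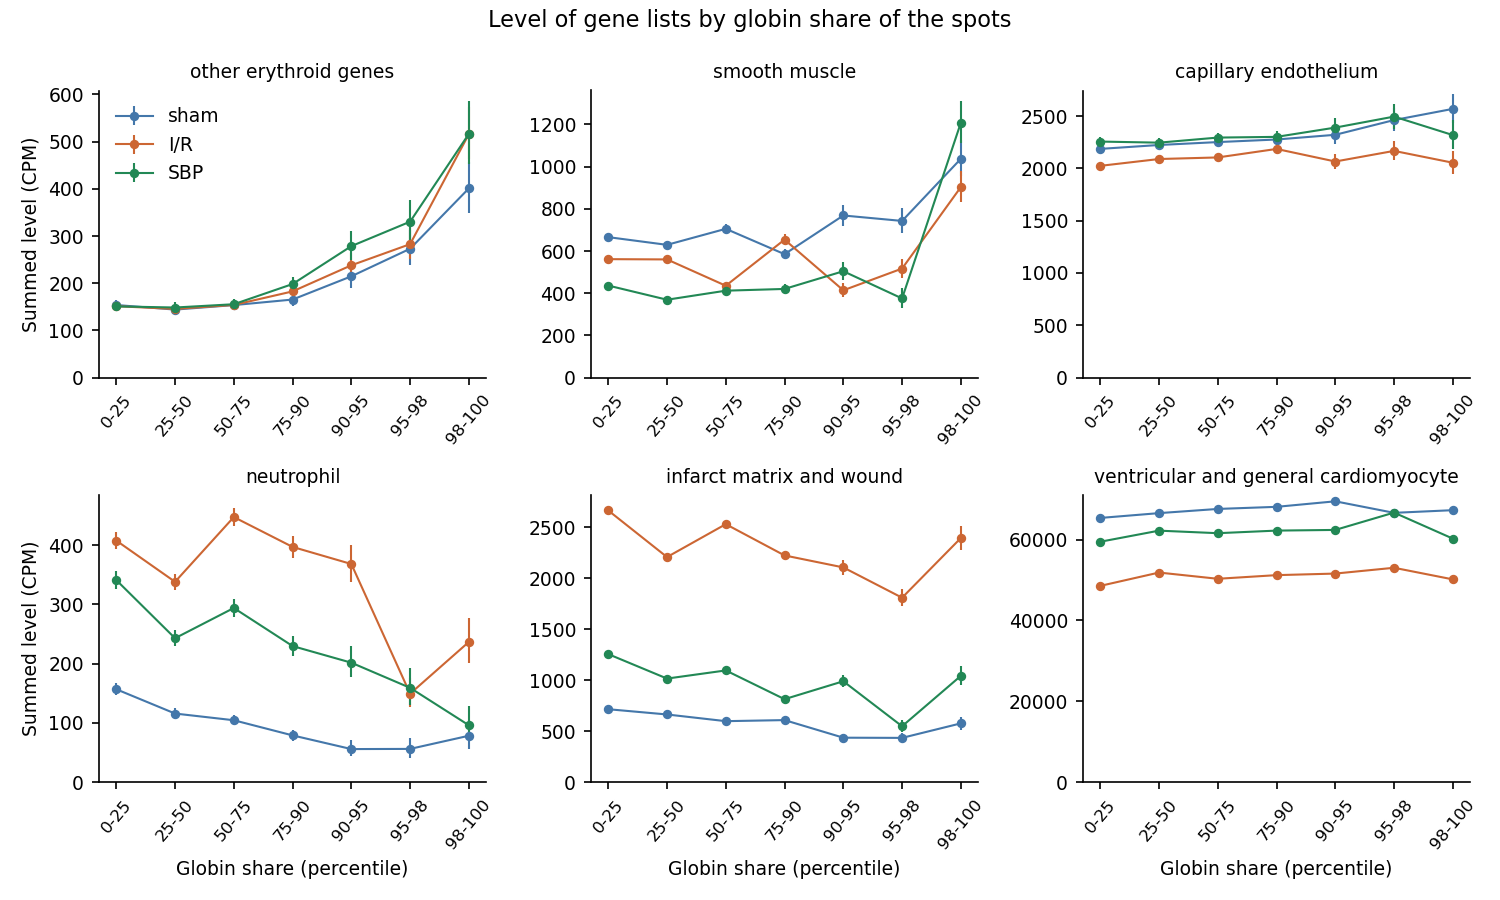
Summed level (CPM, y axis from 0) of 6 gene lists in classes of spots by globin share (x axis, percentiles of the section), with the 95% Poisson interval, for sham, I/R and SBP. Other erythroid genes climb from the 75th percentile on, smooth muscle genes are highest above the 98th, and capillary genes in sham climb from 2186 to 2568 CPM.

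The overlap of blood-rich spots with spots at or above the 95th percentile of a list was a count of spots, read beside the 5.01%, 5.04% and 5.0% of all spots that were blood-rich. The sets compared were of equal size, so that each share is the same of either set. Neutrophil-rich spots made up 0 of 112 (up to 3.24%), 1 of 105 (0.952%) and 1 of 98 (1.02%), and resident macrophage-rich spots 2.68%, 0.952% and 1.02%. Smooth muscle-rich spots made up 4.46% (1.47 to 10.1), 6.67% (2.72 to 13.3) and 8.16% (3.59 to 15.5), capillary-rich spots 5.36%, 3.81% and 5.10%, and infarct-rich spots 3.57%, 2.86% and 2.04%. Spots rich in border-zone stress genes made up 0%, 5.71% and 3.06%, and fibroblast-rich spots 9.82% (5.01 to 16.9), 2.86% and 8.16%. Fewer cells of a type and less RNA per cell cannot be told apart in any of these values.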

How the data were processed

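Visium libraries of 1 heart section per condition (sham, I/R, SBP) were used. Their deposited files hold unnormalized UMI counts for every gene at each spot over tissue. The submitters' processing notes name Space Ranger 1.3.0 and the mm10 build, while the methods text gives a different version and human annotation. The 32285 features are mouse genes, and of their identifiers 32158 were found in GENCODE M21.

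The condition of a section came from its labels. Spots with at least 200 detected genes were kept, which left out 3 spots of 2237 in sham, 1 of 2083 in I/R and 2 of 1962 in SBP. The sections held 25118258, 30238530 and 21631280 UMIs. Within each section, spots at or above the 95th percentile of globin UMIs per 10000 were compared with the others. The UMIs of each kind of spot were added up, divided by their total and scaled to 1000000 (CPM), and the log2 ratio was taken for genes with at least 200 UMIs, the 4 globin genes left out. A gene was counted as higher or lower from 1.5-fold on. For 95% intervals, Poisson limits were taken for sums, Clopper-Pearson limits for shares and the exact conditional binomial limits for a ratio. They cover counting error only. No p-value is given, since there was 1 section per condition. A ratio of a gene with 200 UMIs rests on about 10 UMIs in blood-rich spots, so that its interval is wide.

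The members and the 25 gene lists were chosen with earlier results of these data known. Some genes belong to several lists. Besides list members and globin genes, named genes were in each section the 15 with the highest lower bound and the 10 with the lowest upper bound of the interval. The ratio intervals were run on simulated Poisson counts, the model that they assume. That run therefore says nothing about UMIs gathered in a few spots. Alternatives were other denominators, centring on the median gene, equal weight for each spot, other percentiles, ranking by Hba genes alone, other minimums and a 2-fold limit, and, chosen after seeing the data, the sham threshold in all sections and leaving out the 1% of spots richest in a list or gene. Spots were not clustered, named by cell type or screened for doublets, and single-nucleus libraries were not analysed here. Promoter sequences were taken from RefSeq (GRCm38.p6), where 7 of 8 genes looked for were matched. Software was scipy 1.17.1, numpy 2.4.6, matplotlib 3.10.9 and pandas 2.3.3 under Python 3.11.15.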

Additional observations from a re-analysis of the deposited data

Results flagged for a closer look

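The summed lymphatic endothelium list moved in opposite directions between sections, with log2 ratios of -0.60, 0.77 and 0.49 in sham, I/R and SBP. The list follows Ccl21a (ENSMUSG00000094686), a chemokine of lymphatic vessels with near-identical gene copies, so that its count is uncertain. Ccl21a stood at -1.28, 1.73 and 1.98, and 3 blood-rich spots held 71.6% of its UMIs in I/R and 92.7% in SBP. Islr, a fibroblast gene, had log2 ratios of 0.86, 0.05 and -0.85 on 35, 17 and 6 UMIs in blood-rich spots. Uros, an enzyme of haem synthesis, had 1.0 in sham and -0.86 in I/R on 23 and 9 UMIs. Without the 1% of spots richest in it the lymphatic list turned to -0.059 in I/R, and Ccl21a turned to -0.14 in I/R with the 98th percentile as threshold and, in SBP, to -0.55 without its richest spots, -0.18 with ranking by Hba genes and -0.11 with at least 5000 UMIs per spot. None of these differences between sections was tested. Among the spots left out for having under 200 genes, 1 spot of the sham section held 16 globin UMIs of 688, or 232.6 per 10000, above the threshold of that section.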

How the results depend on the processing

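Over all alternatives run on lists, the summed other erythroid genes stood between 0.83 and 1.65 and the neutrophil genes between -1.51 and -0.51 as log2 ratios. No paired analysis was possible because a condition had a single section. Counts of higher and lower genes depended on the limits. The 90th percentile gave 35 and 306 in sham, 22 and 337 in I/R and 45 and 326 in SBP, the 98th 469 and 993, 496 and 1136, and 475 higher in SBP. At least 500 UMIs per gene gave 10 and 125, 7 and 170, and 11 and 152, no minimum 1659 and 1939, 1494 and 1910, and 1677 and 2078, and a 2-fold limit 4 and 140, 8 and 162, and 15 and 188. Centring on the median gene gave 189 higher in I/R and 202 in SBP, equal weight for each spot 1389 lower in I/R, and the sham threshold 34 and 317 in I/R and 70 and 410 in SBP.

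For summed lists as log2 ratios, centring moved capillary endothelium to 0.22, 0.13 and 0.18 and, in I/R, smooth muscle to 0.43 and the infarct list to -0.13. The 90th percentile moved smooth muscle to 0.0087 in I/R and 0.58 in SBP, neutrophil genes to -0.54 and -0.75, and the infarct list to -0.30 in SBP. With the 98th, smooth muscle stood at 0.65, 0.75 and 1.55, the infarct list at -0.14, -0.00026 and -0.010, neutrophil genes at -0.71 in I/R and -1.51 in SBP, and capillary endothelium at 0.021 in SBP. Without the 1% of spots richest in the list, a setting chosen after seeing the data like the sham threshold, smooth muscle stood at 0.081, 0.029 and 0.048 and the infarct list at -0.10 in sham and -0.39 in I/R. Equal weight gave neutrophil genes -1.35 and -1.37 and the infarct list -0.64 and -0.68 in I/R and SBP. Neutrophil genes in I/R stood at -0.69 with ranking by Hba genes. With at least 5000 UMIs per spot the infarct list stood at -0.17 in I/R and -0.37 in SBP. The sham threshold gave smooth muscle 0.12 in I/R, neutrophil genes -0.51 and -0.77 and the infarct list -0.16 and -0.21 in I/R and SBP. At the 90th percentile, blood-rich spots that were also capillary-rich made up 13.8% in sham and 12.2% in SBP, and neutrophil-rich 4.46% in sham and 5.26% in I/R, where 224 of 2234, 209 of 2082 and 196 of 1960 spots were blood-rich.

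Among genes and lists past 1.5-fold, signs turned for S100a9 in sham with ranking by Hba genes (0.18), for Lyve1 in I/R at the 90th (-0.0025) and 98th percentiles (-0.26), for Ccl21a (-0.14) and Hmox1 (0.079) in I/R at the 98th, for Thbs1 in SBP at the 90th (0.31) and with the sham threshold (0.63), and for Ccl21a in SBP with ranking by Hba genes (-0.18) and at least 5000 UMIs per spot (-0.11). Without the richest 1% they turned for Myh11 in sham (-0.069), the lymphatic list (-0.059) and Alb (0.70) in I/R, and in SBP for Acta2 (-0.12), Ccl21a (-0.55), Myh11 (-1.67), Myl9 (-0.18) and Tagln (-0.64). The causes were not tested. Depth limits genes near 200 UMIs, whose ratios rest on about 10 UMIs in blood-rich spots.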

Other observations

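The list of atrial cardiomyocyte genes had a pooled level higher in blood-rich spots of sham and I/R and not of SBP. It summed to 579, 1465 and 1361 CPM in the blood-rich spots of sham, I/R and SBP. Nearly all of this was Nppa, and 2 of the 7 list members were compared in each section. The sum therefore mostly reports this gene and does not by itself mark atrial tissue. Nppa, the atrial natriuretic peptide gene, stood at 553 against 453 CPM in sham, 1445 against 1129 in I/R and 1339 against 1382 in SBP, with log2 ratios of 0.29 (0.18 to 0.40), 0.36 (0.30 to 0.42) and -0.05 (-0.12 to 0.03). In I/R 3 spots held 40.9% of the list's UMIs in blood-rich spots, and the median blood-rich spot held fewer of them than the median other spot (3.07 against 4.82 per 10000). Leaving out the 1% of spots richest in Nppa gave 0.79, -0.05 and -0.15. Spots rich in this list, and so mostly in Nppa, made up 8.93%, 6.67% and 5.10% of the blood-rich spots. Fibroblast genes summed to 0.08, -0.10 and 0.17, and none of them reached 1.5-fold. The epicardium, adipocyte and Schwann cell lists had 0 to 16 UMIs in the blood-rich spots of a section and were not compared.

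Among genes outside the lists, Pabpc1, a protein that binds poly(A) tails, stood at 188 against 106 CPM in sham, 303 against 224 in I/R and 203 against 144 in SBP, with log2 ratios of 0.82 (0.63 to 1.01), 0.44 (0.31 to 0.57) and 0.50 (0.30 to 0.69). Its UMIs lay in 83, 95 and 81 of the blood-rich spots. In sham, Ppp1r14a, an inhibitor of myosin phosphatase in smooth muscle, had 1.19 (0.61 to 1.73), and 0.07 and 0.22 in I/R and SBP. Abcf2, Cd248, Aggf1 and Apopt1 had log2 ratios of 0.92, 0.87, 1.04 and 0.86 in sham and values between -0.25 and 0.19 in the other sections. In I/R, Cep83, Pheta1, Myot and Acap3 had 1.11, 1.04, 1.01 and 0.97 on 22 to 25 UMIs. Of these, Cep83 and Acap3 reached the minimum for comparison only with the UMIs of their blood-rich spots. Their place among the higher genes of I/R is therefore a description. Ube2l6, an enzyme of ISG15 conjugation that late red cells carry, had 1.06 (0.57 to 1.52) in I/R. It is a member of the other erythroid list and is already part of its counts and sums. In SBP, Mustn1, Tpm2 and Ints10 had 1.31, 0.96 and 1.10, with 70.0% of the Mustn1 and 54.3% of the Tpm2 UMIs in 3 spots. Tpm2 is a member of the smooth muscle list and is already part of its counts and sums.

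Genes with the lowest ratios often had 1 or 2 UMIs in the blood-rich spots. Chsy1 had 1 UMI and Mcm7 2 in sham (log2 -3.57, -8.88 to -1.08, and -2.52, -5.58 to -0.65), Ttc9c 1 and Cdc42ep4 2 in I/R (-3.54, -8.85 to -1.05, and -2.56, -5.62 to -0.69), and Ten1, Adam8 and Abi3 1 each in SBP (-3.91, -9.22 to -1.42, then -3.67, -8.98 to -1.18, and -3.48, -8.79 to -0.99). Better supported were Capg and Coro1a, actin regulators of leukocytes, with -1.33 (-2.17 to -0.59) and -1.21 (-1.95 to -0.56) in sham, and Chil3, a gene of monocytes and macrophages, with -0.77 (-1.21 to -0.36) in I/R and -2.30 (-3.76 to -1.17) in SBP. Clec4a1, a lectin of monocytes, had -2.16 (-4.45 to -0.60) in sham. In I/R, Gfm2 had -1.79 (-3.25 to -0.66) and Thbs1 -1.17 (-1.72 to -0.66), and Alb, the plasma albumin gene of the liver, had 4 UMIs in blood-rich and 442 in other spots (-2.69, -4.57 to -1.32), a ratio that became 0.70 without the 1% of spots richest in Alb.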
